A study of Mus musculus with 30 samples.

Results

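The Hox genes of the mouse lie in 4 clusters, HoxA on chromosome 6, HoxB on chromosome 11, HoxC on chromosome 15 and HoxD on chromosome 2, and their CpG methylation in sperm is described here. A CpG was taken as a member when it lay within the RefSeq GRCm38 body of a Hox gene extended by 2 kb on each side, with both strands summed and 10 or more reads in all 30 mice. Of 416876 such CpGs across the genome, 1294 were members: 362 in HoxA, 321 in HoxB, 260 in HoxC and 351 in HoxD. They belonged to 38 Hox genes, each with 12 or more CpGs, and 295 of the CpGs lay in more than 1 gene window because neighbouring windows overlap.

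The assay, reduced representation bisulfite sequencing (RRBS), is one in which DNA fragments rich in CpG are converted and sequenced so that methylated cytosines still read as cytosine. The DNA came from mature sperm of the cauda epididymis of 30 male C57BL/6J mice, housed singly on a diet with 10% of its energy from fat. The cadmium group was 15 mice that drank reverse-osmosis water carrying cadmium at 0.9 ppm, prepared from the chloride salt, with an average dose of 0.68 mg per kg of body weight. The vehicle group was 15 mice that drank the same water without cadmium. Treatment lasted 9 weeks and the mice were aged 7 weeks when it began.

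Hox genes encode homeodomain transcription factors that give cells of the embryo their position along the head-to-tail axis, and later along the limbs and the genital tract. Their order on the chromosome follows the order in which they act: genes of the low paralog groups, such as Hoxb1, work in the hindbrain, and genes of the high groups, such as Hoxd13, at the tail end and in the digits. In cells where they are silent, the clusters are typically held by Polycomb proteins, which mark histones, rather than by methylation of their CpG-rich DNA, and in sperm they are known to keep both Polycomb-type and active-type histone marks.

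The promoters of 3 HoxD genes show the range found. Hoxd13 and Hoxd1, at the opposite ends of the cluster, have promoters dense in CpG that were nearly free of methylation, and Hoxd4 has a promoter poor in CpG in which every measured CpG was mostly methylated. The sequences, credited to RefSeq on GRCm38.p6, run 5′ to 3′ on the plus strand from 250 bases before the start site to 50 bases from it, and capitals mark the CpGs that were measured.
Hoxd13, chr2:74667975-74668274: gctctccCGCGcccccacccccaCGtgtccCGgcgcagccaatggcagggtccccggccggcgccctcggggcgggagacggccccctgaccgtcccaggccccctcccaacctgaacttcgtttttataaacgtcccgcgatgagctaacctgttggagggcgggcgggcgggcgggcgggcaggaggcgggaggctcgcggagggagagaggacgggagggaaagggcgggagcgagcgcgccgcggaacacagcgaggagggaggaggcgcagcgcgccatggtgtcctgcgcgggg
Hoxd1, chr2:74762730-74763029: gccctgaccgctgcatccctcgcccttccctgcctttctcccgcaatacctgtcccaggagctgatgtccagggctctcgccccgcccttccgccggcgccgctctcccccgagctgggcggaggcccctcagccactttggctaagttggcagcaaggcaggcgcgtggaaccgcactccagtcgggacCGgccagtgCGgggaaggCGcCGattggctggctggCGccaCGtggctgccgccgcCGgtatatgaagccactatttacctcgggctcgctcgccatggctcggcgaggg
Hoxd4, chr2:74721728-74722027: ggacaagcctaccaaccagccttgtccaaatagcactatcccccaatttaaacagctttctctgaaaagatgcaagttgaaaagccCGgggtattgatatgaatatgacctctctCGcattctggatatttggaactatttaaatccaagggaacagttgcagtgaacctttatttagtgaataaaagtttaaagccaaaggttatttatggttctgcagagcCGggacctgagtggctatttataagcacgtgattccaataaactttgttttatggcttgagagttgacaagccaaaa
The Hoxd13 sequence holds 37 CpGs, of which 4 were measured with a mean of 0.336%. Hoxd1, the member of the cluster that acts farthest toward the head, has 29 CpGs in the sequence and 7 measured ones with a mean of 0.578%. The Hoxd4 sequence holds 4 CpGs, an observed-to-expected ratio of 0.339, and its 3 measured CpGs, at 164, 135 and 27 bases before the start, had means of 61.2%, 63.5% and 60.05%.

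In the Hoxd4 promoter the mean over the 3 CpGs ran from 12.3% to 88.2% among cadmium mice, with a median of 63.7%. Among vehicle mice it ran from 13.7% to 89.3%, with a median of 69.2%. The groups covered the same range, and the spread between mice, 59.9% ± 21.4 (SD, n = 15) with cadmium and 63.3% ± 22.5 (SD, n = 15) with vehicle, was far larger than the distance between their means.

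The promoter table held 24 entries for 22 of the 38 genes, and 10 entries had a measured CpG. Apart from Hoxd4, the highest was Hoxa5, a gene needed for lung development, at 9.36% over 2 CpGs. Hoxd12 read 4.25%, Hoxa11 2.16%, Hoxd9 1.79%, Hoxd10 1.54%, Hoxa6 1.34% and Hoxd11 0.880%. Hoxd4 was thus the 1 of 10 Hox promoters at 20% or more, and over all 9161 promoters measured the share at 20% or more was 5.85%. RRBS as commonly done cuts DNA at CCGG, and those letters, which read the same on both strands, occur in 19 of the 24 Hox sequences (79.2%) against 52.8% of all 32851 promoter sequences.

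The clusters also carry microRNA genes, whose products act on Hox messages. The members of the miR-196 family share a seed, the bases 2 to 8 shown in capitals, with which they pair to targets such as Hoxb8, and miR-10b, encoded inside the Hoxd4 body, has another. The mature sequences are from RefSeq.
miR-196a-5p: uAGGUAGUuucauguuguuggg
miR-196b-5p: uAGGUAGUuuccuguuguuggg
miR-10b-5p: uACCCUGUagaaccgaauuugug
The DNA around these genes differed in methylation although the first pair share their seed AGGUAGU. The CpG nearest the hairpin of Mir196a-1, 202 bp away in the gap between Hoxb13 and Hoxb9, read 61.4%. The 3 CpGs within 1 kb of that hairpin averaged 22.9%. The CpG nearest Mir196a-2, 15 bp away beside Hoxc10, read 22.4%, while the 7 CpGs within 1 kb of it averaged 4.78%. The CpG nearest Mir196b, between Hoxa9 and Hoxa10, read 2.27% at 164 bp, and that nearest Mir10b read 4.204% at 511 bp. Within 1 kb, 26 CpGs averaged 2.73% at Mir196b and 3 CpGs averaged 3.66% at Mir10b.

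Median coverage of a Hox CpG was 55.5 to 81 reads among cadmium mice and 59 to 104 among vehicle mice, and coverage summed over all cytosines was 53591172 to 94090975 per library. Reads are not separate molecules, since fragments are copied by PCR, so the precision is lower than the read counts alone would give. The methylated control DNA read 97.9% to 98.7% and the unmethylated control 0.0740% to 0.666%, a background close to the lowest Hox values. As a check of the cell type, the H19 control region, which sperm carry methylated, read 62.6% to 100% over 2 CpGs. The ends of 13 genes with a maternal germline imprint, where only egg-derived DNA carries methylation, read 12.1% ± 4.12 (SD, n = 15, range 5.47% to 18.8%) in cadmium mice and 10.7% ± 6.58 (SD, n = 15, range 3.15% to 25.8%) in vehicle mice. This value is called the maternal level below, and vehicle mouse 4 was the only mouse above 25%. Of 15 such gene ends measured, only the 13 that averaged under 20% were kept. A low mean was thus fixed by the choice and is no check of the cell type.

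Sperm carried little methylation at the Hox clusters. The mean over the 1294 CpGs was 4.51% and the median 1.71%, and 1038 CpGs (80.2%) averaged under 5%. By contrast, 64 CpGs reached 20%, 16 reached 50% and 1 reached 80%. Over all 416876 CpGs the mean was 28.1%, and the Hox mean was lower than it in 30 of 30 mice. The median went the other way, at 1.39% over all CpGs, below that of Hox. CpGs at 20% or more made up 4.95% of the Hox CpGs and 34.9% of all CpGs, and 61.2% of all CpGs averaged under 5%.

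Genes of 83 other developmental transcription factors, many of them known Polycomb targets, had a mean of 5.51% over 4546 CpGs. The Hox mean was lower in 28 of 30 mice. The order turned for the typical CpG: the median was 1.71% in Hox and 1.23% in the other factors, and the share under 5% was 80.2% in Hox against 85.4%. CpGs at 80% or more made up 0.0773% of the Hox CpGs, 1.94% of those of the other factors and 22.0% of all CpGs.

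CpGs that stood in groups, 3 or more with gaps of 100 bp or less, averaged 3.52% in the Hox clusters over 1161 CpGs, and 133 CpGs outside such groups averaged 13.1%. The same split over all gene windows was 12.9% against 63.5%, so that isolated Hox CpGs were methylated far less than isolated CpGs of other genes. Of the isolated Hox CpGs 29 (21.8%) reached 20%, and of the grouped ones 35 (3.01%). Over all gene windows these shares were 77.0% and 16.2%. The median of grouped CpGs went the other way, at 1.60% in Hox and 0.574% over all gene windows. CpGs in gene bodies averaged 4.47% and those in the extensions alone 4.67%.

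Means differed more between clusters than between treatments, except for HoxD and HoxB, whose means lay close together. HoxC had the highest mean, 6.23% over its 260 CpGs, followed by HoxA at 5.18%, HoxD at 3.62% and HoxB at 3.33%. HoxC was the highest cluster in 24 of 30 mice and lay above HoxB in 29 of 30. HoxB and HoxD did not keep their order, with HoxD above HoxB in 17 of 30 mice. These counts describe mice and carry no test.

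**Figure D1:**
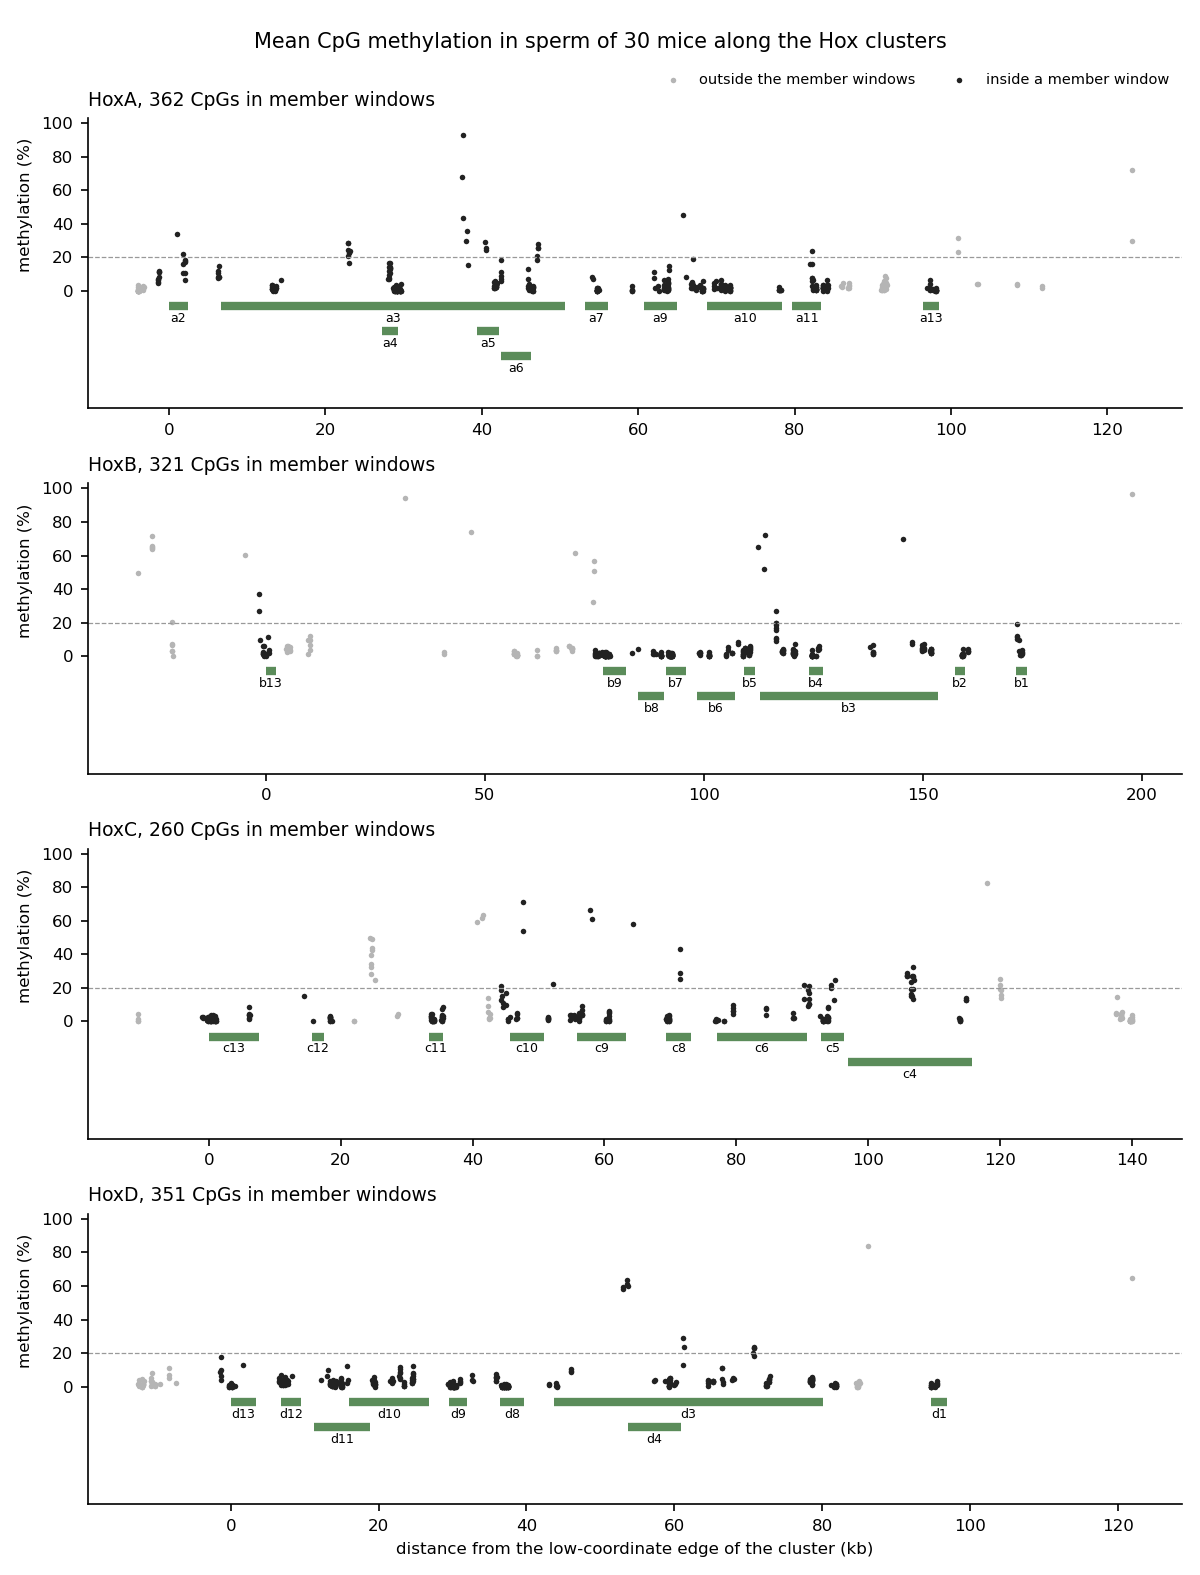
Mean methylation of each CpG over 30 mice (vertical axes, percent) along HoxA, HoxB, HoxC and HoxD (horizontal axes, kb from the low-coordinate edge of the cluster), with black points for CpGs inside Hox gene windows, grey points for other CpGs, green bars for gene bodies labelled without "Hox", and a dashed line at 20%. Most points lie under 5%, a flat stretch of 239 CpGs covers Hoxd13 to Hoxd8, and exceptions stand near Hoxa5, near Hoxd4, in Hoxb3 and from Hoxc10 to Hoxc9.

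The longest stretch without a CpG at 20% was in HoxD. It held 239 CpGs over 47.5 kb (chr2:74666801-74714259) and took in 6 whole genes, Hoxd8 to Hoxd13, which pattern the limb and the genital bud. In HoxB the longest such stretch held 171 CpGs over 35.5 kb (chr11:96269482-96304989) with Hoxb6, Hoxb7, Hoxb8 and Hoxb9. HoxC had 63 CpGs over 23.0 kb with Hoxc12 and Hoxc13, the second of which is needed for hair and nails. HoxA had 90 CpGs over 15.9 kb with no whole gene inside, because its last measured CpG fell within the Hoxa13 body. Stretches were followed only to the outermost CpGs of the gene windows, and those of HoxA, HoxC and HoxD stopped at that limit. Of 39 CpGs 2 to 20 kb beyond Hoxd13, 0 reached 20%, so the HoxD length is a lower limit.

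The nearest highly methylated CpG lay at different distances beyond the clusters. Counted from the outermost gene ends, the nearest CpG at 80% or more lay 89.6 kb and 161.6 kb away on the low- and high-coordinate sides of HoxA. For HoxD these distances were 57.5 kb and 148.7 kb, and for HoxB 58.5 kb and 23.9 kb. At HoxC they were 45.8 kb and 2.29 kb. The shorter distance, beyond Hoxc4, rests on the 1 CpG of 7 between 2 and 20 kb that reached 80%. At 20 to 50 kb on that side 34 CpGs averaged 4.91%, and 31 of them were under 5%. RRBS samples such flanks thinly, with 0 measured CpGs between 2 and 20 kb on the Hoxd1 side, and a nearer methylated CpG that was not measured would not be seen.

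Inside the clusters but outside the gene windows, CpGs were low in HoxA (36 CpGs, mean 2.88%). In HoxD the 16 such CpGs had a median of 1.47% and a mean of 6.497%, with 15 under 5% and 1 at 80% or more. The wide gap between Hoxb13 and Hoxb9, 74.7 kb, held 55 CpGs with a mean of 9.64%, of which 6 reached 20%. In HoxC the 23 such CpGs averaged 25.1%, and 12 reached 20%. Hotair, a noncoding gene between Hoxc12 and Hoxc11, had the most methylated window of 17 measured noncoding genes of the clusters at 35.3%, while Hoxc11 and Hoxc12 beside it read 2.02% and 2.65%.

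By gene, the share of methylated reads in the window ran from 0.792% in Hoxd1 and Hoxb7 to 19.6% in Hoxa5. All 38 windows lay under 20% and 22 lay under 5%, against 53.9% and 32.1% of the 21454 gene windows measured across the genome. The median was 3.90% for Hox and 16.6% for all windows. All 37 CpGs of the Hoxa5 window and all 26 of the Hoxd4 window also lay in another Hox window. The 2 CpGs of the Hoxa5 window at 50% or more lay outside its body, in the 2 kb extension. They were deeply covered, with medians of 231 and 234 reads per mouse, and count for more in a share of reads. With equal weight for each CpG the Hoxa5 window read 13.2%.

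**Figure D2:**
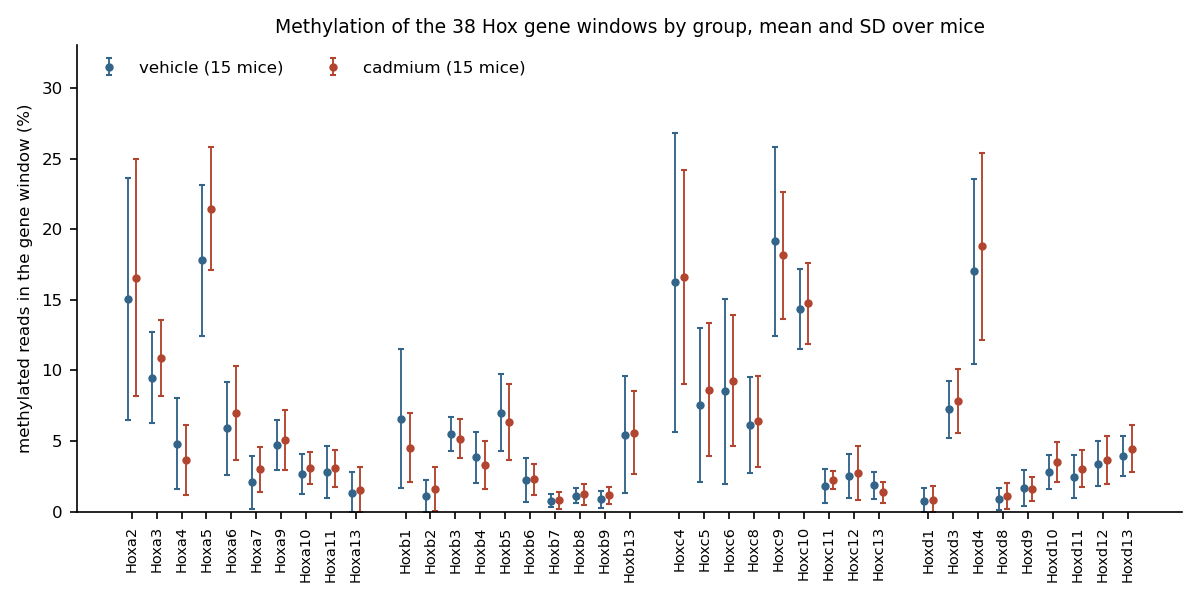
Share of methylated reads in the window of each of the 38 Hox genes (vertical axis, percent), with genes ordered by cluster and paralog group, as mean and SD over 15 vehicle mice (blue) and 15 cadmium mice (red), bars cut off at 0. Hoxa5, Hoxc9, Hoxd4, Hoxc4, Hoxa2 and Hoxc10 stand highest, and the bars of both groups overlap in every gene.

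Among the genes of the head end, paralog groups 1 to 4, the mean over the CpGs of a window had a median of 6.45% over 11 genes. Hoxd1 was the lowest of them at 0.888% and Hoxc4 the highest at 16.6%. Hoxd4, at 15.8%, came next to Hoxc4, and Hoxa2, which shapes the second branchial arch, read 12.9%. Hoxb4, the paralog of Hoxc4 and Hoxd4 known from blood stem cells, read 1.29%, and Hoxa4 read 3.36%, so members of 1 paralog group stood far apart.

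Groups 5 to 8, which act in the trunk, had a median of 6.00% over 11 genes by the same measure. They ran from 0.666% in Hoxb7 and 0.829% in Hoxb8 to 13.2% in Hoxa5. The 3 HoxC genes of these groups lay close together, with Hoxc5 at 6.00%, Hoxc8 at 6.70% and Hoxc6 at 7.36%.

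Groups 9 to 13, which act toward the tail, in the limbs and in the genital tract, had a median of 2.86% over 16 genes. By this mean over CpGs only Hoxc10 exceeded 10%, at 11.4%, followed by Hoxc9 at 8.09% and Hoxb13 at 6.43%. As a share of reads the order of the first pair turned, with Hoxc9 at 18.6% and Hoxc10 at 14.6%. Hoxb9, at 0.852%, was the lowest. Hoxa10 and Hoxa11, genes of the uterus, read 2.29% and 3.15%, and Hoxd13 and Hoxa13, genes of the digits, read 3.07% and 1.35%.

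The exceptions to the low profile were few. Where they end was often not resolved, since the next measured CpG lay up to 7842 bp away. All 16 CpGs at 50% or more fell in 7 runs of neighbouring measured CpGs: 5 CpGs before Hoxd4, 2 near Hoxa5, 3 and 1 in and beside Hoxb3, and 2, 2 and 1 between Hoxc10 and the DNA beyond Hoxc9.

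The run before Hoxd4 (chr2:74721317-74721952) lay within the long Hoxd3 body and held 5 CpGs over 636 bp, including the 3 printed in capitals in the Hoxd4 promoter. Each averaged 58.3% to 63.5%. The nearest measured CpGs on either side, 7059 bp before and 3564 bp after, read 10.8% and 3.58%. In single mice the run read 18.1% to 93.3% with cadmium (median 61.0%) and 19.6% to 91.3% with vehicle (median 68.0%), and 22 of 30 mice were at 50% or more. Neither group lay to 1 side of the other.

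The most methylated CpG of the Hox gene windows was chr6:52199962-52199963, at 93.2%, in the RefSeq body of Hoxa3 and 4624 bp beyond the Hoxa5 start in the direction of transcription. It belonged to a region of 3 CpGs, chr6:52199921-52200029, whose other CpGs averaged 67.9% and 43.3%. The region read 64.3% to 85.2% among cadmium mice (median 79.9%) and 57.3% to 88.4% among vehicle mice (median 73.9%). It was at 50% or more in 30 of 30 mice, the steadiest of the methylated regions, and the groups overlapped over nearly their whole range. The nearest measured CpG on the low-coordinate side, 7842 bp away, read 4.15%. Outside the windows but inside the clusters, 1 further CpG of HoxB and 1 of HoxD averaged 80% or more.

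In HoxB the CpGs at 50% or more stood outside the groups of neighbouring CpGs. A run of 3 CpGs from just outside Hoxb3 into its body (chr11:96306737-96308299) averaged 52.2% to 72.5% per CpG. A single CpG farther into the Hoxb3 body, chr11:96339911-96339912, read 70.2% with a median of 34.5 reads per mouse. It stood at 0% in the lowest vehicle mouse, 38.2% in the lowest cadmium mouse and 100% in the highest mouse of each group. Its SD between mice was 34.6 points in vehicle and 24.1 in cadmium. Spread at single CpGs was commonly wide but smaller than this: the 63 Hox CpGs between 20% and 80% had a median SD of 21.6 points in vehicle and 21.8 in cadmium.

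In HoxC, 2 CpGs in Hoxc10 (chr15:102968715-102968757) averaged 71.1% and 53.7%, and 2 in Hoxc9 (chr15:102978910-102979282), a gene of thoracic motor neurons, averaged 66.6% and 61.0%. A further CpG, chr15:102985389-102985390, lay 945 bp outside the Hoxc9 body and read 58.3%. The nearest measured CpGs beyond these runs read 9.29% or less. The Hoxc9 pair had a median of 448.5 reads per mouse in sum, but 51.5 at its first CpG and 406.5 at its second. Its share of methylated reads thus rests mainly on the second CpG. That share ranged from 29.7% to 79.1% among cadmium mice and 13.4% to 88.6% among vehicle mice.

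Of 148 Hox regions of grouped CpGs, 7 averaged 20% or more and 116 averaged under 5%. Regions under 20% made up 95.3% of the Hox regions and 60.2% of all 44897 regions, and those under 5% made up 78.4% and 55.1%. The median region turned the other way, with 2.25% in Hox and 1.76% over all regions. Beside the region near Hoxa5, the 7 comprised 2 others within the Hoxa3 body, 2 in Hoxc4, 1 in Hoxc8 and 1 in Hoxd3.

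**Figure D3:**
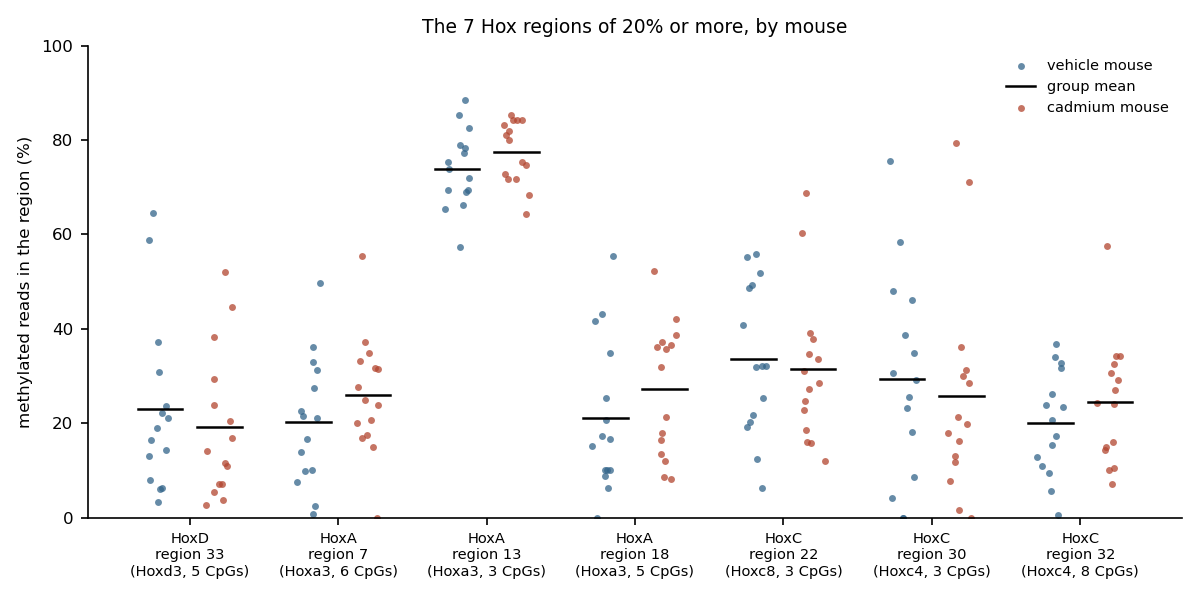
Share of methylated reads in each mouse (points, percent on the vertical axis) for the 7 Hox regions that averaged 20% or more, with vehicle mice in blue, cadmium mice in red and black lines at the group means. Region 13 of HoxA lies between 57.3% and 88.4% in every mouse, and the other 6 regions scatter widely in both groups.

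The region chr6:52209440-52209646, 5 CpGs that begin 768 bp upstream of the Hoxa6 start within Hoxaas3 and Hoxa3, read 8.24% to 52.2% in cadmium mice (median 31.9%). In vehicle mice it read 0% to 55.4% (median 16.7%). The vehicle mice spread a little more widely, and the groups overlapped throughout. A region of 6 CpGs within Hoxa3, chr6:52185335-52185383, read 0% to 55.4% in cadmium mice (median 24.95%) and 0.680% to 49.6% in vehicle mice (median 21.2%), again with full overlap.

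In Hoxc4, the gene at the high-coordinate end of its cluster, the region chr15:103027046-103027080 of 3 CpGs read 0% to 79.3% in cadmium mice (median 19.9%). In vehicle mice it read 0% to 75.6% (median 29.04%). The second, chr15:103027794-103028010 with 8 CpGs, read 7.03% to 57.4% (median 24.2%) in cadmium mice and 0.623% to 36.7% (median 20.7%) in vehicle mice. In the first the medians favoured vehicle and in the second cadmium, and in both the groups overlapped.

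The Hoxc8 region chr15:102992598-102992662 of 3 CpGs read 12.02% to 68.9% in cadmium mice (median 28.4%). It read 6.32% to 55.8% in vehicle mice (median 32.0%). The Hoxd3 region chr2:74738881-74739011 of 5 CpGs read 2.65% to 52.0% (median 14.0%) in cadmium mice and 3.24% to 64.5% (median 18.9%) in vehicle mice. Low and high mice occurred in both groups at each.

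None of the 7 regions passed the test between the groups by the logistic model described below, with unadjusted p from 0.130 to 0.901 and adjusted p of 0.940 or more. The mean differences, cadmium minus vehicle, ran from -3.76 points in Hoxd3 to 6.20 points upstream of Hoxa6.

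Methylation at these 7 regions moved with the maternal level over the 30 mice. Pearson's r was 0.667 at the region of 6 CpGs in Hoxa3, 0.615 and 0.604 at the Hoxc4 regions, 0.589 upstream of Hoxa6 and 0.431 near Hoxa5. It was negative at Hoxc8, -0.543, and at Hoxd3, -0.416. Spearman's rho gave the same signs, with 0.632, 0.633, 0.588, 0.546, 0.418, -0.531 and -0.463 in the same order. Permutation tests with 100000 resamples were run on 21 relations, with the maternal level, the mitochondrial share of coverage and total coverage. After Benjamini-Hochberg adjustment over the 21, 7 of 7 relations with the maternal level passed 0.05 for r, with adjusted p from 0.00042 to 0.0378. Regions outside the Hox windows were not put to these tests, so the relations are not shown to be particular to Hox regions.

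**Figure D4:**
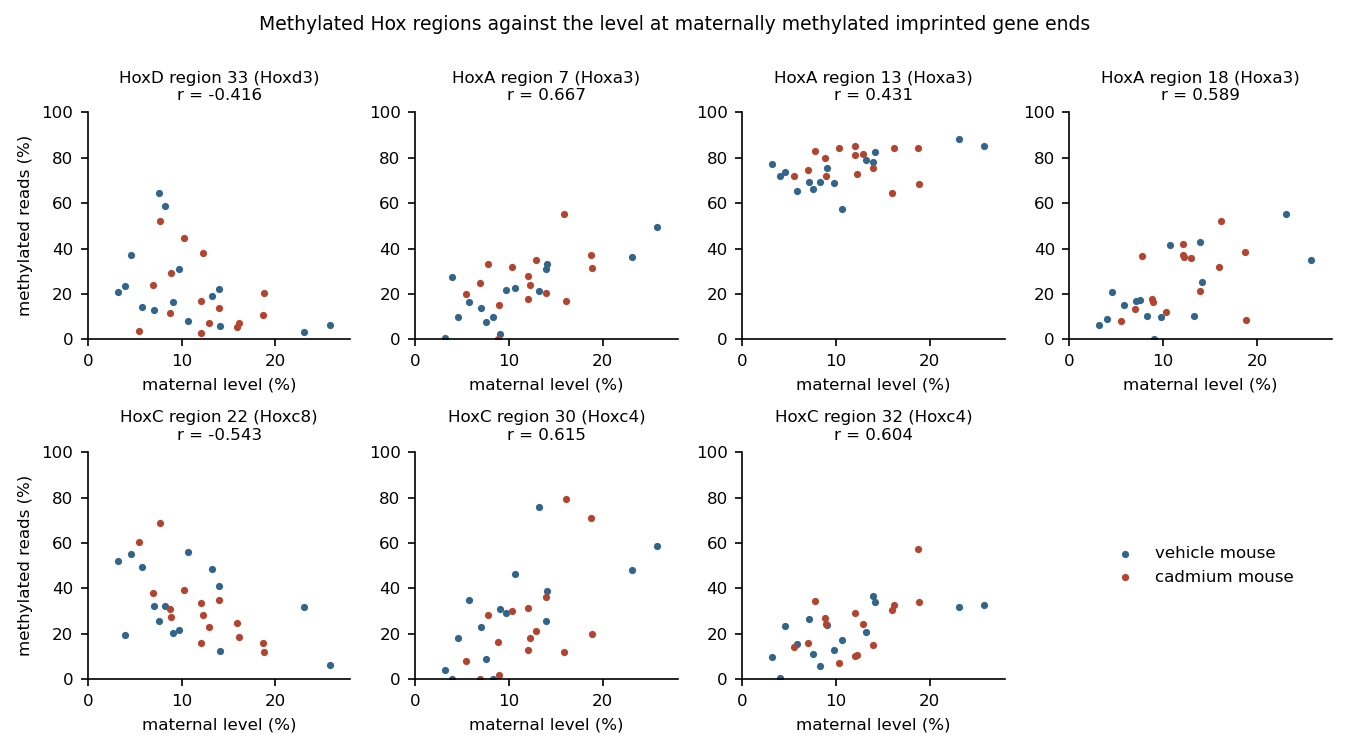
Share of methylated reads in each of the 7 methylated Hox regions (vertical axes, percent) against the maternal level of the same mouse (horizontal axes, percent), with vehicle mice in blue, cadmium mice in red and Pearson's r over 30 mice above each panel. Of the 7 panels 5 rise with the level, and those of Hoxc8 and Hoxd3 fall.

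Within the cadmium group, whose maternal levels span less, r was -0.764 at Hoxc8, the 1 of 7 that passed, and -0.0415 near Hoxa5. In the vehicle group r was 0.815 at the Hoxa3 region of 6 CpGs and 0.651 near Hoxa5, and 5 of 7 passed. Leaving out vehicle mice 4 and 13, whose levels lay farthest from the median, r was 0.251 near Hoxa5 and -0.337 at Hoxd3. Neither of these passed without those mice, with adjusted p of 0.317 and 0.142 by the permutation test. With the mitochondrial share 6 of 7 relations passed, the strongest at the second Hoxc4 region (r = 0.710), and with total coverage 0 of 7 did. The maternal level and the mitochondrial share were both low in vehicle mouse 3 (3.15% and 0.0128%) and both high in vehicle mouse 13 (23.1% and 0.119%). In cadmium mouse 15 they differed, at 7.73% and 0.0819%. How far they move together was not tested, so their relations cannot be counted as separate findings. What the maternal level and the mitochondrial share contribute to these Hox values was not tested.

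The means of whole clusters also differed between mice. HoxC was highest in cadmium mouse 13, then in vehicle mice 13, 4 and 14, and HoxA in vehicle mouse 4, cadmium mouse 13, vehicle mouse 13 and cadmium mouse 9. HoxA read 9.25% in vehicle mouse 4 and 1.92% in vehicle mouse 3, the mouse with the lowest maternal level. HoxB and HoxD varied less, from 2.05% to 4.46% and from 2.76% to 5.35% over the 30 mice.

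**Figure D5:**
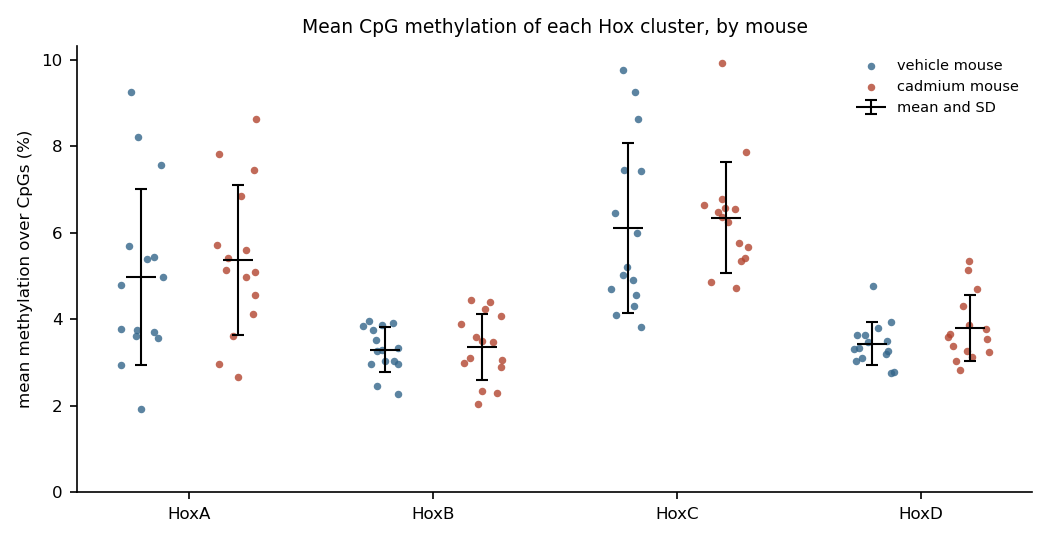
Mean methylation over the CpGs of each Hox cluster (vertical axis, percent) in every mouse, with vehicle mice in blue, cadmium mice in red, and black bars for group mean and SD (15 mice each). The groups overlap in all 4 clusters, and HoxA and HoxC spread more widely than HoxB and HoxD.

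The study asked whether cadmium changes sperm methylation, and across the Hox clusters the groups overlapped. The mean over all Hox CpGs was 3.30% to 6.97% in cadmium mice (median 4.71%) and 2.86% to 6.40% in vehicle mice (median 4.21%). By cluster, cadmium and vehicle averaged 5.38% ± 1.73 and 4.98% ± 2.04 in HoxA, and 6.35% ± 1.28 and 6.11% ± 1.96 in HoxC (SD, n = 15). HoxB averaged 3.36% ± 0.770 and 3.30% ± 0.523, and HoxD 3.79% ± 0.763 and 3.44% ± 0.501 (SD, n = 15). Each difference, 0.0606 to 0.402 points, was smaller than the SD of either group, and no p is given because the members were chosen with results of these data known.

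For single genes, regions and CpGs, methylated and unmethylated reads were compared with a logistic model that allows for extra spread between mice, by an F test with p-values adjusted over the whole genome. Of 38 Hox gene windows 0 passed an adjusted p of 0.05, where 0% of all 21454 windows passed. At an unadjusted p under 0.05 there was 1 Hox window (4.58% of all windows), which was higher in cadmium mice (3% of all windows were such, and 1.58% were lower), and limma on percent methylation also called 0. The cadmium mean was the higher in 30 of 38 Hox windows, against 59.3% of all windows. Windows overlap and share the mice that are high or low, so this count is not one of separate observations.

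The Hox windows with the smallest p among those higher in cadmium mice were Hoxa5, Hoxd10 and Hoxb9. Hoxa5 read 15.7% to 30.9% (median 21.0%) in cadmium mice and 9.75% to 30.2% (median 17.1%) in vehicle mice. Its means were 21.5% ± 4.34 and 17.8% ± 5.35 (SD, n = 15), p = 0.0449 unadjusted and 1.00 after adjustment over all windows. The highest mice of both groups were level and the lowest were in vehicle. This window shares all 37 of its CpGs with other Hox windows, and its 2 CpGs at 50% or more lie outside the Hoxa5 body.

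Hoxd10, a gene of the lumbar spinal cord and the limb, averaged 3.54% ± 1.42 against 2.83% ± 1.22 (SD, n = 15), with ranges of 1.37% to 6.53% (median 3.99%) and 0.892% to 4.76% (median 2.51%). Hoxb9 averaged 1.16% ± 0.622 against 0.872% ± 0.605 (SD, n = 15), with ranges of 0.118% to 2.08% (median 1.06%) and 0.118% to 2.40% (median 0.733%). Both overlapped almost fully, with unadjusted p of 0.128 and 0.138.

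Among windows lower in cadmium mice, Hoxc13, Hoxb1 and Hoxa4 had the smallest p, at 0.173, 0.188 and 0.323 unadjusted. Hoxc13 ranged from 0.464% to 3.14% (median 1.27%) in cadmium mice and 0.947% to 4.73% (median 1.49%) in vehicle mice. Hoxb1, which sets the identity of a hindbrain segment, ranged from 0% to 7.91% (median 4.83%) and 0.135% to 18.1% (median 6.18%). Hoxa4 ranged from 0.807% to 9.18% (median 3.38%) and 0.705% to 10.2% (median 5.001%). In all 3 the highest mouse was a vehicle mouse, and the sign of Hoxa4 turned when windows were extended by 5 kb.

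Of the 148 Hox regions 0 passed the adjusted threshold, where 0% of all 44897 regions passed, and limma called 0. At an unadjusted p under 0.05 there were 10 Hox regions (6.76%), against 6.01% of all regions, which is near the background. Of these 7 were higher in cadmium mice, where 2.93% of all regions were, and 3 lower, where 3.08% of all were.

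The Hox region closest to the threshold lay in the Hoxb9 body, chr11:96272598-96272632, with 4 CpGs. It was above 0% in 7 of 15 cadmium mice, up to 3%, and in 1 of 15 vehicle mice, at 0.338%; both medians were 0%. The means were 1.00% ± 1.24 and 0.0225% ± 0.0872 (SD, n = 15), with p = 2.32e-05 unadjusted and 0.0931 adjusted. The 1 vehicle mouse above 0% was vehicle mouse 4, and without it, when every vehicle mouse left was at 0%, the adjusted p was 0.0355, the 1 Hox call in any fit that kept the term for spread between mice. By limma the adjusted p was 1.00, and when CpGs needed 10 reads in only 10 mice per group, where this stretch merged with its neighbours, the difference was -0.0108 points.

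The next region in Hoxb9, chr11:96272409-96272482 with 10 CpGs, went the other way. It was above 0% in 4 cadmium mice, up to 1.02%, and in 8 vehicle mice, up to 3.18% (medians 0% and 0.125%), with means of 0.139% ± 0.297 and 0.721% ± 0.985 (SD, n = 15) and an adjusted p of 0.593. The group means of both regions, at 1.00% or less, stand beside 0.0740% to 0.666% in the unmethylated control DNA.

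The other regions picked out by p were low too, though some of their group means exceeded 1.00%. In Hoxd8, chr2:74705390-74705487 was above 0% in 4 cadmium mice, up to 3.81%, and had 0 methylated of 6535 reads in vehicle mice, which allows a share of up to 0.0459% for counting error alone. In Hoxd10, 247 bp upstream of its start, chr2:74691600-74691644 averaged 1.70% ± 2.26 against 0.439% ± 0.989 (SD, n = 15). Medians were 0% in both groups at each. In Hoxd10 7 cadmium mice were above 0%, up to 7.13%, and 4 vehicle mice, up to 3.66%.

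Lower in cadmium mice were chr6:52233975-52234180 in Hoxa10 and chr15:102997967-102998011, within the Hoxc6 window. The Hoxa10 region of 13 CpGs ranged from 0% to 3.42% (median 0.858%) and 0% to 4.45% (median 2.44%), with an adjusted p of 0.626. The Hoxc6 region had 0 methylated of 2468 reads in cadmium mice, which allows up to 0.122%, and was above 0% in 5 vehicle mice, up to 12.8%. A single vehicle mouse thus stood far above the rest there, and the adjusted p was 0.684.

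Of the 1294 Hox CpGs 0 passed, where 7 of 416876 CpGs (0.00168%) passed, and limma called 0. At an unadjusted p under 0.05 there were 168 Hox CpGs (12.98%), against 10.3% of all CpGs. Of these 105 were higher in cadmium mice, where 5.55% of all CpGs were, and 63 lower, where 4.71% of all were. Neighbouring CpGs share fragments, so these are not 168 separate observations.

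The CpGs with the smallest p were methylated in a few mice of 1 group only. Those higher in cadmium mice were chr11:96286871-96286872 in Hoxb7 (4 mice above 0%, up to 11.1%), chr11:96314837-96314838 in Hoxb3 (5 mice, up to 10.8%) and chr6:52204104-52204105 in Hoxa5 (5 mice, up to 33.3%). The vehicle mice had 0 methylated reads of 1350, 1330 and 1180 at them, which allows up to 0.222%, 0.226% and 0.254%. Those lower in cadmium mice were chr6:52246668-52246669 beside Hoxa11 (5 vehicle mice, up to 19.7%), chr15:102977213-102977214 in Hoxc9 (4 mice, up to 35.0%) and chr6:52232097-52232098 in Hoxa10 (4 mice, up to 16.3%). The cadmium mice had 0 methylated reads of 1300, 797 and 1136 there, which allows up to 0.231%, 0.376% and 0.264%. All medians were 0%, and adjusted p ran from 0.151 to 0.273.

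Genes that border the clusters or work with Hox proteins were compared in the same way, and in every list 0 windows passed the adjusted threshold of the logistic model, where 0% of all windows passed. Of 17 genes flanking the clusters 1 had an unadjusted p under 0.05, where 4.58% of all windows did. It was Ttll6 beside HoxB, at 46.7% ± 7.89 in cadmium and 54.8% ± 7.54 in vehicle mice (SD, n = 15). Hibadh and Cbx5, at 69.6% and 97.5%, were the most methylated of these genes, and Atp5g2 read 0.564%. The CpGs of the flanking genes averaged 21.2% but had a median of 1.47%, below the 1.71% of Hox CpGs, and 64.5% were under 5%. Of these CpGs 29.2% reached 20%, against 4.95% in Hox. Most CpGs of the neighbours were thus low too, but the low methylation of the clusters did not extend evenly to them.

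Of 17 noncoding genes within the clusters 1 had an unadjusted p under 0.05, where 4.58% of all windows did. It was the antisense gene Hoxd3os1, at 4.94% ± 5.18 against 1.30% ± 1.43 (SD, n = 15). Haglr, in HoxD, read 4.52% ± 2.08 against 3.32% ± 1.04 (SD, n = 15). Halr1, near HoxA, read 26.1% over all mice, next to Hotair. The median of the list was 4.64%, close to that of the Hox windows.

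The ParaHox genes, thought to share an ancestral cluster with Hox, had a median of 2.14% over 5 measured genes. Of these 0 had an unadjusted p under 0.05, where 4.58% of all windows did. Gsx2, Pdx1 and Cdx2 read 1.92%, 2.37% and 2.14%, and Cdx1 stood apart at 11.3%. Of the 9 Hox cofactors, which bind DNA beside Hox proteins, 1 had such a p, beside the same 4.58% of all windows. It was Meis1, at 8.02% ± 1.18 against 6.54% ± 1.34 (SD, n = 15) with an adjusted p of 0.924. The cofactor windows were more methylated than those of Hox genes, with a median of 18.3%. Pknox2 read 44.8% and Pbx2 10.2%.

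Of 25 Polycomb and Trithorax genes, whose products silence or keep Hox genes active, 3 had an unadjusted p under 0.05, 2 of them higher in cadmium mice and 1 lower, where 4.58% of all windows had such a p. The cadmium mean was the higher in 12 genes of the list and the lower in 13. Bmi1 read 0.983% in cadmium mice against 0.712% in vehicle mice, and Cbx8 36.5% against 31.4%. Kmt2a, whose product keeps Hox genes active, had the most methylated window of the list, at 35.3%.

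Of 82 measured genes of other developmental transcription factors 3 had an unadjusted p under 0.05, 2 of them higher in cadmium mice and 1 lower, beside the same 4.58% of all windows. The cadmium mean was the higher in 42 and the lower in 40. Tbx5 read 13.9% in cadmium mice against 12.2% in vehicle mice, and Gata6 12.4% against 10.0%. Their windows had a median of 2.83%, lower than that of the Hox windows, and the highest were Meox2 at 80.4% and Meox1 at 39.4%.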

How the data were processed

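The deposited tables gave, for every cytosine of a CpG, its position, strand, coverage count and the fraction of reads that was methylated. Per the submitters' processing notes, Bismark 0.22.3, methylKit 1.12.0, bcl2fastq and Trim Galore 0.5.0 were used with the builds GRCm38 and mm10. What each tool did was not given in the sources used here. Multiplying the deposited fraction by the count gave methylated reads; 0 or 1 cytosine per library missed a whole number by over 0.1. PCR copies and reads of 1 fragment are not separate molecules, so depth overstates the precision, and limits from counts of 0 (3 counts) cover counting error only.

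Strands were summed, and autosomal and X-linked CpGs covered by 10 or more reads in all 30 mice were kept. RefSeq GRCm38.p6 gave gene starts and ends, without exons. Reads were summed over gene windows (body plus 2 kb, 3 or more CpGs) and over regions (3 or more CpGs, gaps up to 100 bp). The test was a logistic model on treatment with the Pearson dispersion at least 1, an F test and Benjamini-Hochberg adjustment over the whole table, called under 0.05. It was tested on simulated data, where it recovered the changes placed and called slightly more unchanged regions than its nominal rate. The 3 windows, regions and CpGs with the smallest p in each direction are named, with all regions averaging 20% or more and, from each gene list, the 3 of smallest p and the 2 most methylated. Some genes that this rule takes are not reported here. CpGs of 50% or more and their runs were picked out after their values were seen.

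The Hox genes, the gene lists and the tests were chosen with earlier results of these data known. The maternal level is the mean over gene ends (1000 bp either side) of 13 genes with a maternal germline imprint. These were the genes, of 15 measured, whose ends averaged under 20%, and they use 12 distinct sets of CpGs. Mice were grouped by the labelled treatment. Alternatives were minimum coverage, mice required, a coverage limit, no dispersion term, limma 3.58.1 on percent methylation (alone, with a replicate block or with the maternal level), other windows, gaps and CpG minimums, separate strands, and leaving out the mouse above 25% at the maternal level. Python 3.11.15, scipy 1.17.1 and R 4.3.3 were used.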

Additional observations from a re-analysis of the deposited data

How the results depend on the processing

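Alternatives were run for the counts of calls, the cluster means, the relations with the maternal level and 18 named features. Of 186 values of named features under alternatives 164 kept sign and side of the threshold, 19 passed it where they had not, 18 of these without the dispersion term, and 3 changed sign. These were the Hoxb9 region at 96272598 (-0.0108 points with 10 reads needed in only 10 mice per group), its neighbour at 96272409 (0.174 points with gaps up to 300 bp) and the Hoxa4 window (0.897 points when extended by 5 kb), each redrawn by the alternative.

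Without the dispersion term, which treats reads as independent, 13199 gene windows were called (29 Hox), 24094 regions (92 Hox) and 187942 CpGs (646 Hox). With 10 reads needed in only 10 mice per group 1 region was called, with gaps up to 300 bp 2 regions, and without vehicle mouse 4 there were 5 regions, 1 of them the Hoxb9 region. With 20 reads 2 CpGs were called, and with limma 0, also with the maternal level. The cause of these changes was not tested. Within cadmium mice 1 of 7 relations with the maternal level passed, and r at the region 52199921 turned to -0.0415.

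With the replicate number as a replicate block, limma called 0 gene windows, regions and CpGs, and the cluster differences were 0.402, 0.0606, 0.242 and 0.353 points as before. The labels give no pairing and the numbers did not meet the rule for one. Same-numbered mice correlated from -0.269 to 0.694 (mean 0.113, against -0.00668 for other pairs), with 6 of 15 pairs over 0.1, and for 2 of 15 cadmium mice the best match was the vehicle mouse of that number. Cluster differences kept their sign and size under the alternatives within 1 SD, except that HoxB as a share of all reads read -0.0687 points. At the 63 Hox CpGs between 20% and 80% the median dispersion was 17.6 times the binomial at a median of 78 reads. Copying by PCR and spread between mice cannot be told apart in it.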
